A study of Mus musculus with 8 samples.

Results

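Chemokines are small secreted proteins that draw leukocytes into tissue, and they act through receptors on the surface of those cells. Their transcripts were examined in ventricular tissue (left ventricle and septum) from mice aged 12 months on a Swiss Agouti background. The members were all array probes whose gene symbol names a chemokine ligand of the Ccl or Cxcl series, a receptor of the Ccr or Cxcr series, Cx3cl1, Cx3cr1 or Xcl1. This gave 64 of 25697 probes, for 51 gene symbols. A probe was taken as detected where its detection p-value was under 0.01 on 4 or more of the 8 arrays. Of the 64 probes, 31 were detected (25 symbols), or 48.4%, against 41.0% of all probes on the array.

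Of the 8 mice, 4 carried a knock-in deletion on 1 allele (heterozygotes) and 4 were their wild-type littermates. Each gave 1 Illumina bead array. The genotype rests on the labels, since it was not checked on the arrays. The comparison asks how ventricular transcripts of aged carriers differ from those of wild types, in a line that the series title describes as developing ventricular fibrosis with age. The tissue is whole ventricle, so fewer cells of a type and less RNA per cell cannot be told apart.

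Chemokines are grouped by the spacing of their first cysteines into the CC, CXC, CX3C and XC classes. Some are made on demand at sites of injury and recruit monocytes, neutrophils or T cells, while others are made constantly and guide lymphocytes and stem cells to their niches. Cardiac macrophages, fibroblasts and endothelial cells are known sources in the heart, and Ccr2 marks the monocytes that enter it from blood. The receptors are coupled to inhibitory G proteins and sit mainly on leukocytes.

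Upstream sequences are shown for 4 members, to set the results beside the control regions of these genes. Cxcl14 had the smallest p in the comparison, Ccl12 and Ccl8 are close neighbours whose values ranked the mice differently, and Cxcl10 was detected in 1 mouse alone. Each sequence is the 250 bases before the annotated start, from RefSeq on GRCm38.p6, written 5′ to 3′ along the gene's own strand.
Cxcl14, chr13:56296552-56296801, minus strand: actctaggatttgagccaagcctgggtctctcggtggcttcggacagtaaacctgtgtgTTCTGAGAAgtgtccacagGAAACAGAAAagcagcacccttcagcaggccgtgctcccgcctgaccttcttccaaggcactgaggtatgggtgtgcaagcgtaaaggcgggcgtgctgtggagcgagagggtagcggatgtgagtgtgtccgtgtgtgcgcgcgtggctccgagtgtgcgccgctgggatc
Ccl12, chr11:82101595-82101844, plus strand: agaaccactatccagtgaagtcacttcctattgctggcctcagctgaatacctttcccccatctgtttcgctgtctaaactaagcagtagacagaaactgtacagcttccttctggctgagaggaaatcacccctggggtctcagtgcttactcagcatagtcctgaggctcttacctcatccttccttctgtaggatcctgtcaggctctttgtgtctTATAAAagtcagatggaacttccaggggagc
Ccl8, chr11:82114935-82115184, plus strand: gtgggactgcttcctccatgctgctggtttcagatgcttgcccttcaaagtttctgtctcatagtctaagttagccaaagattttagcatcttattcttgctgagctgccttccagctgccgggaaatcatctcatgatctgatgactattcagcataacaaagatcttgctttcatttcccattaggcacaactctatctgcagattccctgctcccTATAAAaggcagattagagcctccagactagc
Cxcl10, chr5:92348890-92349139, minus strand: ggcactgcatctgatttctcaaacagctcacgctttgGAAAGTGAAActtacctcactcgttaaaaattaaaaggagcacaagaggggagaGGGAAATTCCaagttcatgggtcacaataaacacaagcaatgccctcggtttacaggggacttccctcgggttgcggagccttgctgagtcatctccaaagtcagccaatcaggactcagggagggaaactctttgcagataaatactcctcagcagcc
Capitals mark matches to 4 letter patterns. These were GGGA and TTCC with any 2 bases between (a form of the NF-kB site), GAAA and GAAA with any 2 bases between (interferon response), TTC and GAA with any 3 bases between (the gamma-activated site, which reads the same on both strands) and TATAAA (the TATA box), each sought on both strands except the last, sought on the gene's strand. Where both strands match the first pattern the matches overlap, and no pattern overlaps another in the sequences shown. In Cxcl14 the gamma-activated pattern began 191 bases and the interferon pattern 172 bases before the start. Cxcl10, an interferon-induced gene, held an interferon pattern at 213 and an NF-kB pattern at 159 bases. Ccl12 and Ccl8 held a TATA box at 31 and 32 bases. Among all 32851 promoters of the table, the same window held the NF-kB pattern in 1.21%, the interferon pattern in 2.98%, the gamma-activated pattern in 7.02% and the TATA box in 7.59%. Of the 18 detected members with an entry, 8 had TATAAA, 2 the interferon pattern, 1 the gamma-activated and 1 the NF-kB pattern (Cxcl1, at 71 bases). TATAAA began 30 to 32 bases before the start in Ccl12, Ccl8 and Cxcr4. In the others of the 8 it began between 6 (Cx3cl1) and 195 bases (Cxcl9) before it. A member counted if any of its entries matched, while the percentages are per promoter. A match describes letters only.

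Heterozygote 3 stood apart from the other mice before any comparison. Its array had the lowest mean correlation with the others (0.950, against 0.971 to 0.977) and the most detected probes (11545, against 10094 to 10809). Its chemokine probes set it apart too, with 40 of 64 detected, against 25 to 31 in the other 7 mice. All 9 chemokine probes detected on only 1 to 3 arrays were detected in heterozygote 3, and 5 of them in no other mouse. Differences of the genes named are therefore given with and without this mouse. The ventricular cardiomyocyte markers fixed for the tissue (such as Myl2 and Tnni3) were detected with 9 of 9 probes. Their summed intensity, mostly from bright probes such as that of Myl2, was 87211 to 97726 in heterozygotes and 86935 to 100544 in wild types. In normalized log2 values 1 probe was higher in heterozygotes and 8 lower. The median difference was -0.16 (-0.11 without heterozygote 3), and 0 of these probes reached an adjusted p under 0.05 (limma). With 4 arrays per genotype, the number of mice limits the precision.

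**Figure D1:**
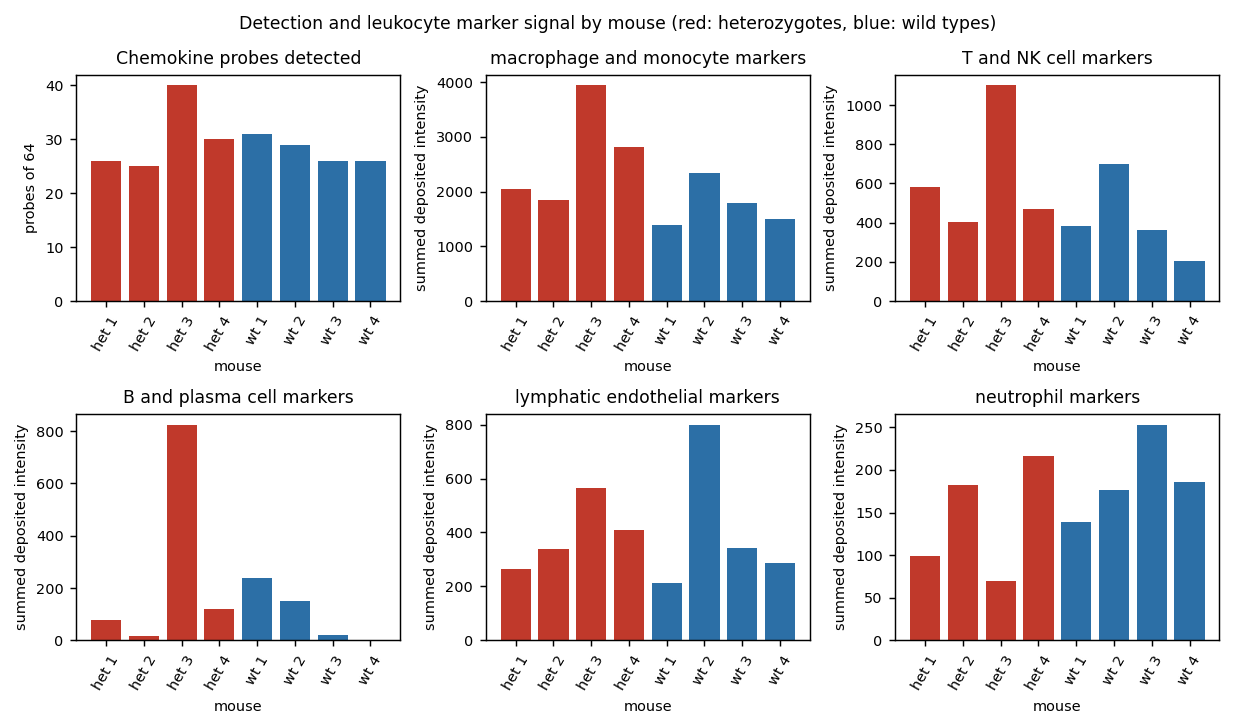
Bars show the number of chemokine probes detected and the summed deposited intensity of 5 marker lists, for each of the 8 mice (het, heterozygote, and wt, wild type). Intensities are in arbitrary units, and sums take in every probe of a list, detected or not. Heterozygote 3 has 40 detected probes and the highest macrophage, T and B cell sums, wild type 2 the highest lymphatic sum, and heterozygote 3 the lowest neutrophil sum.

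Differences below are heterozygote minus wild type in normalized log2 intensity, while intensities given mouse by mouse are the deposited ones, in the order of mice 1 to 4 of each genotype. No chemokine or receptor probe passed the test between the genotypes. Of the 31 detected probes, 0 reached an adjusted p under 0.05 with limma, as did 0% of all 10547 probes tested. The smallest adjusted p among members was 0.947. Before adjustment, 4 of 31 members had a p under 0.05, against 4.67% of all probes. Cxcl14, Cx3cr1 and Ccl12 were among them. All 4 had higher means in heterozygotes, and over all probes 2.04% were higher and 2.64% lower at that level. No detected member had all 4 heterozygotes above or below all 4 wild types in normalized values, against 1.53% and 1.14% of all probes tested.

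Most members were nonetheless on the higher side in heterozygotes with all mice included. Of 31 detected probes 28 had a difference above 0, against 50.1% of all probes, and the median was 0.27 on the log2 scale against 0.00062 over all probes. Without heterozygote 3 the count was 16 of 31, against 54.0% of all probes, and the median was 0.0045 against 0.021. Median scaling in place of quantile normalization moved the median of all probes to 0.14, and 30 of 31 members and 74.4% of all probes were then above 0. Each of the 31 probes was detected on at least 2 arrays of each genotype, so none entered through 1 genotype alone. For Ccl4, Ccl6 and Cxcl9, detected on exactly 4 arrays, heterozygote 3 was 1 of those arrays. They stayed in the counts without heterozygote 3. The median SE was 0.27 for members and 0.18 for all probes.

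Heterozygote 3 was the highest of the 8 mice for 17 of 31 members, against 19.0% of all probes. Its normalized value exceeded the median of the other 7 by a median of 0.80 over the members, while over all probes that median was -0.099. Heterozygote 2 was the lowest mouse for 9 of 31 members, against 9.98% of all probes. The SD was larger among heterozygotes than wild types for 18 of 31 members, against 59.1% of all probes, and without heterozygote 3 for 12 of 31, against 38.9%. For Ccl5, Ccl8 and Cxcl13 heterozygote 3 was the highest and heterozygote 2 the lowest of all 8 mice.

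**Figure D2:**
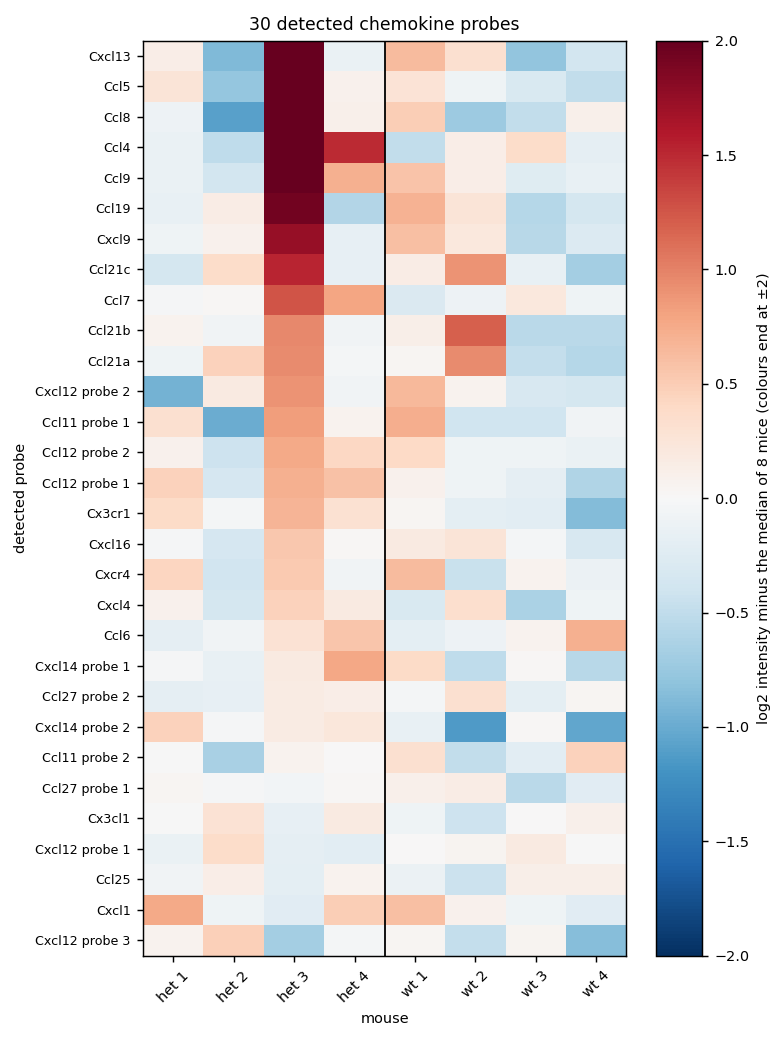
Rows are 30 of the detected probes and columns the mice, with colour for the normalized log2 intensity minus the median of the 8 mice. Red in the column of heterozygote 3 is strongest in the upper rows, from Cxcl13 to Ccl7. In that column Cxcl1, Cx3cl1, Ccl25, Ccl27 probe 1 and the Cxcl12 probes 1 and 3 lie below the median.

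The monocyte and eosinophil attractants came first among the ligands. Ccl2, Ccl7, Ccl11, Ccl12, Ccl8 and Ccl1 lie next to each other in this order on chromosome 11. Ccl2 and Ccl1 were detected on 0 arrays, the other genes on at least 5. Ccl12, a mouse ligand of Ccr2, had deposited intensities of 69.3, 29.0, 99.9 and 88.6 in heterozygotes 1 to 4 and 35.6, 47.7, 39.6 and 20.5 in wild types 1 to 4 on probe ILMN_2771766. Heterozygotes 1, 3 and 4 lay above every wild type and heterozygote 2 below all but wild type 4. The difference was 0.55 (95% interval 0.02 to 1.08), and 0.43 (-0.12 to 0.98) without heterozygote 3. The second probe, ILMN_3161805, gave 0.18 (95% interval -0.35 to 0.72) and 0.0045.

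Ccl7, another Ccr2 ligand, gave 25.7, 25.9, 106 and 70.8 in heterozygotes and 15.3, 28.6, 36.8 and 21.7 in wild types. Heterozygotes 3 and 4 stood above all wild types, and heterozygotes 1 and 2 lay among them. The mean was 57.0 ± 38.7 in heterozygotes and 25.6 ± 9.23 in wild types (SD, n = 4 each). The log2 difference was 0.58 (95% interval -0.03 to 1.19), and 0.33 (-0.16 to 0.82) without heterozygote 3.

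Ccl8, which acts on Ccr8 in mice, showed the opposite extremes within 1 genotype. Its intensities were 45.6, 13.4, 309 and 63.9 in heterozygotes and 55.7, 27.4, 32.8 and 47.5 in wild types, so the highest and the lowest mouse were both heterozygotes. The difference of 0.43 (95% interval -0.85 to 1.71) became -0.20 without heterozygote 3. Ccl11, or eotaxin, which attracts eosinophils, gave 116, 31.3, 184 and 108 in heterozygotes and 109.8, 69.9, 64.6 and 69.7 in wild types on probe ILMN_2647757. Heterozygotes held both the highest and the lowest mouse. Its probes differed by 0.09 and -0.16 (-0.17 and -0.23 without heterozygote 3), so they disagreed in sign with all mice included.

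**Figure D3:**
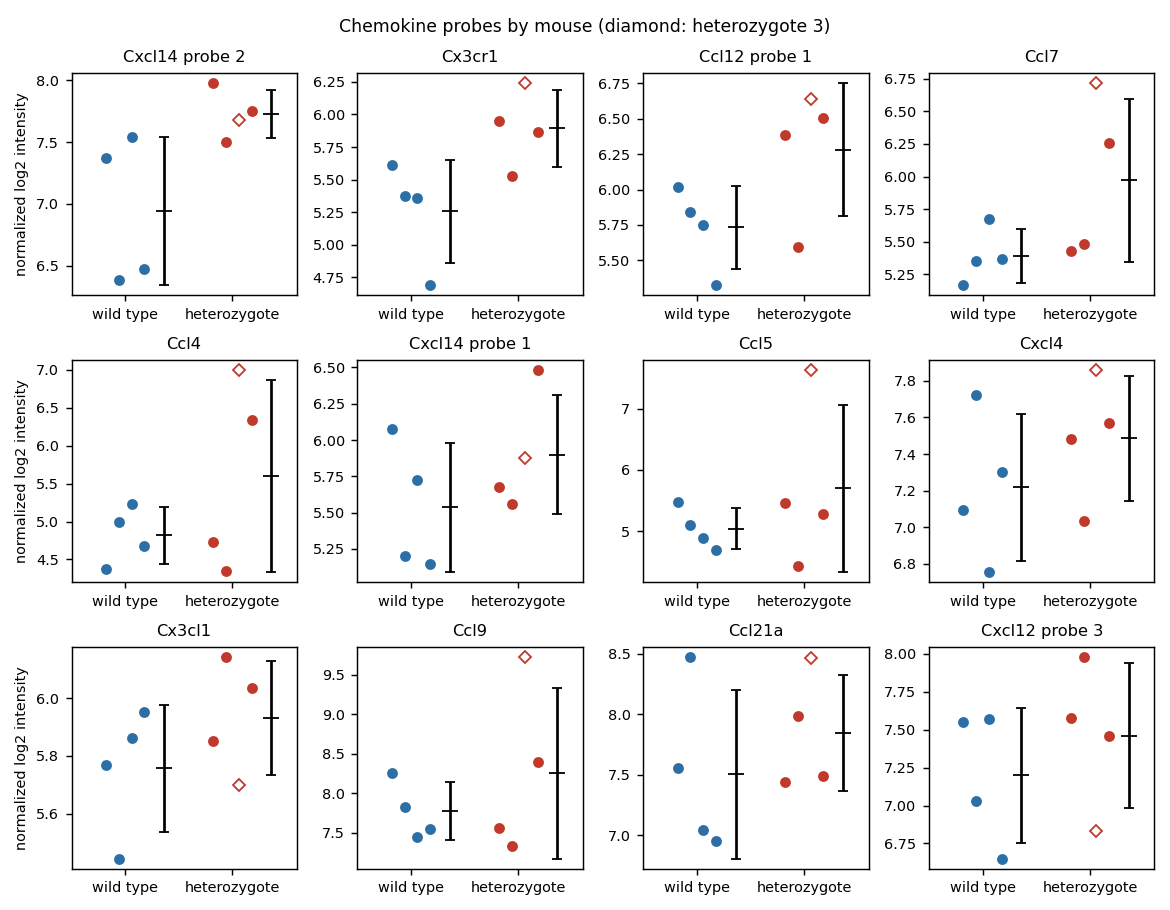
Each panel plots the normalized log2 intensity of 1 of 12 probes, with a point per mouse and the group mean ± SD (n = 4) beside the points. The probes are those with the lowest unadjusted p among 30 of the detected probes, up to 0.36 (limma). The diamond of heterozygote 3 is the highest value for Cx3cr1, Ccl12, Ccl7, Ccl4, Ccl5, Cxcl4 and Ccl9, and lies among the other heterozygotes for Cxcl14.

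A second run of neighbours on chromosome 11 holds Ccl5, Ccl9, Ccl6, Ccl3 and Ccl4, ligands that attract T cells and macrophages. Ccl5 had intensities of 26.6, 3.98, 202 and 26.1 in heterozygotes and 21.2, 21.2, 14.4 and 8.86 in wild types. Heterozygote 3 stood at 9.53 times the median of the other 7 mice, and heterozygote 2 was the lowest. The difference of 0.66 (95% interval -0.56 to 1.87) was 0.02 without heterozygote 3. Ccl9 gave 183, 134, 844 and 389.8 in heterozygotes and 210.4, 236, 167 and 151 in wild types. Heterozygotes 3 and 4 were the highest mice, and heterozygote 2 the lowest. Its difference was 0.48 (95% interval -0.52 to 1.49), and -0.01 without heterozygote 3.

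Ccl4 lay near the limit of detection, with 9.55, 2.36, 130.1 and 76.6 in heterozygotes and 2.70, 18.3, 22.7 and 8.45 in wild types on the probe detected on 4 arrays. Heterozygotes 3 and 4 exceeded all other mice and heterozygote 2 was lowest. The difference was 0.79 (95% interval -0.36 to 1.94), the largest among the members in absolute size and with a wide interval, and 0.33 (-0.61 to 1.26) without heterozygote 3. The other Ccl4 probe was detected in heterozygote 3 alone. Ccl6, also detected on 4 arrays, gave 7.10, 8.46, 23.5 and 27.3 in heterozygotes and 5.99, 10.2, 13.3 and 24.2 in wild types, and differed by 0.03, or -0.02 without heterozygote 3. Ccl3 was detected on 0 arrays. These probes and Cxcl9 were the members just inside the limit of 4 arrays, and Ccl24 (an eotaxin), with 3 arrays, was just outside it. Ccl24 ranged from 2.84 in wild type 3 and 1.84 in heterozygote 2 to 18.9 in heterozygote 3.

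Ligands that organise lymphoid tissue made up the next group. Cxcl13 guides B cells into follicles, and its intensities were 36.5, 9.08, 289.6 and 32.2 in heterozygotes and 42.8, 52.2, 12.95 and 18.5 in wild types. Heterozygote 3 was at 8.98 times the median of the others, and the remaining heterozygotes lay within the range of the wild types or below it. The difference was 0.46 (95% interval -0.93 to 1.85), and -0.24 without heterozygote 3. Ccl19, a ligand of Ccr7 on dendritic and naive T cells, gave 17.0, 23.3, 147 and 10.1 in heterozygotes and 33.2, 33.8, 10.1 and 12.2 in wild types. Apart from heterozygote 3, no heterozygote reached wild types 1 and 2. Its difference was 0.33 (95% interval -0.76 to 1.42), and -0.20 without heterozygote 3.

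The Ccl21 genes, whose products line lymphatic vessels and also bind Ccr7, showed another pattern. Probe Ccl21a gave 167, 222, 360.5 and 197 in heterozygotes and 123, 386, 121 and 94.3 in wild types. Wild type 2 was the highest mouse, with heterozygote 3 next, and in deposited values the other wild types were below every heterozygote. In normalized values wild type 1, at 7.56, was above heterozygotes 1 (7.44) and 4 (7.49). The same 2 mice led for Ccl21b, at 354 and 291, and for Ccl21c, at 447 and 639. Differences were 0.34, 0.16 and 0.29, and 0.14, -0.08 and -0.10 without heterozygote 3. Without wild type 2 they were 0.66, 0.54 and 0.57. The copies of Ccl21 are close to identical, so their probes may report 1 signal. The lymphatic endothelial markers outside the members (Prox1, Reln, Flt4) summed to 264 to 565 in heterozygotes and 212 to 799.9 in wild types, with wild type 2 the highest and heterozygote 3 next, the order of Ccl21a and Ccl21b but not of Ccl21c. In both of those mice most of the sum was Reln. Prox1 was lowest in heterozygote 3, and Flt4 was detected on 0 arrays. The part of these cells in the Ccl21 values was not tested.

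Ccl27, known from skin, and Ccl25, known from thymus and gut, gave small differences. The probes of Ccl27 differed by 0.13 and -0.04, and the detected probe of Ccl25 by 0.06 (95% interval -0.29 to 0.42). Without heterozygote 3 the same probes differed by 0.14, -0.10 and 0.12. The intensities of Ccl25 ran from 6.30 to 17.5 in wild types and from 11.7 to 17.5 in heterozygotes.

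Cxcl14, a CXC ligand of epithelial and stromal cells that attracts monocytes and dendritic cells, gave a difference of similar size with and without heterozygote 3. Probe ILMN_2760800 gave 253, 153, 211 and 241 in heterozygotes 1 to 4 and 107, 76.7, 180.3 and 62.5 in wild types 1 to 4. Heterozygotes 1, 3 and 4 lay above every wild type, and heterozygote 2 below wild type 3 only. The mean was 214 ± 44.8 in heterozygotes and 107 ± 52.5 in wild types (SD, n = 4 each). The difference was 0.78 (95% interval 0.19 to 1.37) on the log2 scale, with an unadjusted p of 0.014 and an adjusted p of 0.947 (limma). It was 0.81 (0.14 to 1.48) without heterozygote 3, and ran from 0.60 to 0.98 with 1 mouse left out. The second probe, ILMN_2659426, gave 34.0, 28.0, 54.3 and 86.7 in heterozygotes and 37.6, 23.7, 38.5 and 16.5 in wild types, and differed by 0.36 (95% interval -0.21 to 0.93), or 0.37 without heterozygote 3. On that probe only heterozygotes 3 and 4 exceeded the wild types in deposited values, and only heterozygote 4 in normalized values. The intervals of the 2 probes overlapped.

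Cxcl12 and its receptor Cxcr4, the pair that retains stem cells in bone marrow, did not separate the genotypes. Probe ILMN_2658908 of Cxcl12 gave 2724, 3337, 2249.7 and 2754 in heterozygotes and 2077, 2971, 3327 and 2434 in wild types. Its difference was -0.10 (95% interval -0.45 to 0.25), and -0.05 without heterozygote 3. Probe ILMN_3158250 gave 0.26 (95% interval -0.35 to 0.87), and 0.48 without heterozygote 3. In deposited values that mouse was the lowest heterozygote on both probes. In normalized values of ILMN_2658908 heterozygote 4, at 11.18, was below heterozygote 3, at 11.21. Probe ILMN_2737302 gave 0.0029 and -0.28, with heterozygote 3 the highest and heterozygote 1 the lowest mouse, and 2 further probes were detected on 0 arrays. Probes of Cxcl12 thus placed heterozygote 3 on opposite sides. Cxcr4 gave 65.8, 27.0, 85.7 and 46.9 in heterozygotes and 55.7, 32.5, 49.5 and 33.5 in wild types, with a difference of 0.09 (95% interval -0.50 to 0.67), and -0.05 without heterozygote 3.

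Cxcl9, Cxcl10 and Cxcl11 are ligands of Cxcr3 that interferon gamma induces, and they recruit activated T cells. Cxcl9 gave 10.4, 12.9, 96.6 and 10.6 in heterozygotes and 21.1, 20.5, 1.77 and 7.22 in wild types. Heterozygote 3 was the only mouse above 21.1. The difference of 0.39 (95% interval -0.52 to 1.31) was -0.06 without it. Cxcl10 reached 22.2 in heterozygote 3, the only mouse in which it was detected, with the rest between -3.39 and 2.10. Their receptor Cxcr3 was likewise detected there alone, at 46.7 against 1.91 to 9.85. Cxcl11 was detected on 0 arrays.

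The other CXC ligands had groups that overlapped. Cxcl1, a neutrophil attractant, gave 70.5, 27.7, 34.9 and 62.8 in heterozygotes and 42.9, 43.1, 32.6 and 22.8 in wild types. In deposited values heterozygotes 1 and 4 were the highest mice, while in normalized values wild type 1 (6.24) was above heterozygote 4 (6.13). Heterozygote 3 was inside the wild-type range. The difference was 0.14 (95% interval -0.42 to 0.70), and 0.29 without heterozygote 3. Cxcl4, the platelet factor now named Pf4, gave 172, 106, 237 and 210.1 in heterozygotes and 85.5, 218, 96.8 and 125 in wild types, with a difference of 0.27 (95% interval -0.25 to 0.78), and 0.15 without heterozygote 3. Cxcl16, a membrane-bound ligand of Cxcr6, differed by 0.03 (95% interval -0.42 to 0.48), or -0.13 without heterozygote 3, with heterozygote 3 the highest at 142 and wild type 2 next at 113. Cxcl15, known in mice from lung epithelium, reached 51.0 in heterozygote 3 and was between -6.81 and 4.44 in all others.

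Fractalkine, Cx3cl1, is tethered to endothelial cells, and its receptor Cx3cr1 marks patrolling monocytes and resident macrophages. Cx3cr1 gave 45.1, 27.0, 74.3 and 48.6 in heterozygotes and 24.4, 29.3, 26.3 and 8.70 in wild types. Heterozygotes 1, 3 and 4 lay above all wild types and heterozygote 2 below wild type 2, so the groups overlapped by 1 mouse in deposited values. The mean was 48.8 ± 19.5 in heterozygotes and 22.1 ± 9.19 in wild types (SD, n = 4 each). The difference was 0.64 (95% interval 0.15 to 1.13), with an unadjusted p of 0.015 and an adjusted p of 0.947 (limma). Without heterozygote 3 it was 0.52 (0.03 to 1.01), and with 1 mouse left out it ran from 0.45 to 0.77. Cx3cl1 gave 41.2, 49.1, 46.5 and 57.3 in heterozygotes and 28.4, 31.7, 44.0 and 39.6 in wild types, and heterozygote 3 was not the highest there. The log2 difference of the ligand was 0.17 (95% interval -0.18 to 0.53), and 0.25 (-0.10 to 0.61) without heterozygote 3.

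Without heterozygote 3, 3 of 31 members had an unadjusted p under 0.05, against 7.77% of all probes, and Cxcl14 and Cx3cr1 were among them. None passed after adjustment (limma, smallest adjusted p among members 0.634), as for 0% of all probes. Of the 17 detected CC ligand probes 15 were above 0 with all mice and 8 without heterozygote 3. For the 10 detected CXC ligand probes the counts were 9 and 5.

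**Figure D4:**
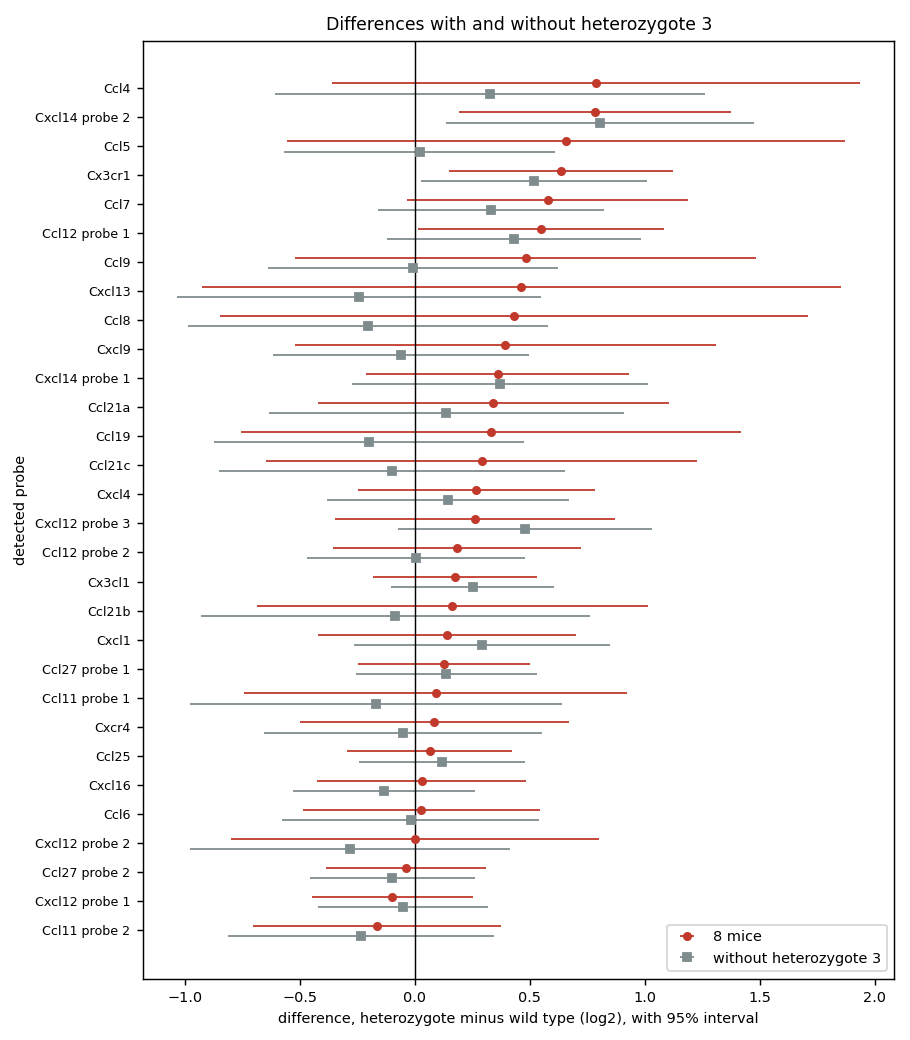
Points are log2 differences, heterozygote minus wild type, of 30 of the detected probes with 95% intervals, from all 8 mice (circles) and without heterozygote 3 (squares). Of the circles 27 lie right of 0, and of the squares 15, with Ccl5, Ccl9, Ccl8 and Cxcl13 among those that move to about 0 or below.

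The members that were not detected include the classical monocyte axis. Ccl2 ranged from -6.58 to 4.95 and its receptor Ccr2 from -6.51 to 0.075, with 0 arrays detected for each. In all, 24 probes were detected on 0 arrays, with intensities between -8.75 and 11.3. Among the ligands these were Ccl1, Ccl2, Ccl3, Ccl17, Ccl20, Ccl22, Ccl26l, Ccl28, Cxcl2, Cxcl5, Cxcl11 and Xcl1, with a probe of Ccl25 and 2 of Cxcl12. Among the receptors they were Ccr1, Ccr1l1, Ccr2, Ccr3, Ccr4, Ccr7, Ccr8, Ccr9 and Cxcr6. So the receptor of Ccl19 and Ccl21, and those of Ccl7 and Ccl12, were at background where the ligands were detected. A probe at background sets no level for its transcript. Ccr6, the Ccl20 receptor of B cells and some T cells, was detected with its probes on 1 and 2 arrays and reached 103 in heterozygote 3, against at most 10.2 elsewhere. Genes that carry an older symbol in the file fall outside the rule. The receptor of Cxcl13, listed as Blr1, was detected on 0 or 2 arrays over 3 probes, and those of Cxcl1, listed as Il8ra and Il8rb, on 0.

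Other genes of chemokine signalling did not pass either. Of 54 detected probes for chemokine binders, signal transducers, adhesion molecules, inducers and processing enzymes, 34 were above 0 and 20 below, with a median of 0.093, and 0 passed the test (limma). Without heterozygote 3, 22 were above 0 and the median was -0.040. On the higher side the smallest p belonged to the adaptor Myd88, with a log2 difference of 0.35 (0.18 without heterozygote 3), the kinase subunit Pik3cg with 0.48 (0.28), the exchange factor Vav1 with 0.65 (0.23) and the cytokine Il1b with 0.54 (0.25). So without that 1 mouse each of these was smaller. On the lower side were the kinase Rock1 with -0.78 (-1.05 without heterozygote 3), the G protein subunit Gng11 with -0.41 (-0.30), the integrin Itgb1 with -0.28 (-0.37) and the endothelial Pecam1 with -0.23 (-0.23). By group, signal transducers were above 0 for 17 of 23 probes (11 without heterozygote 3), inducers for 9 of 12 (6) and adhesion molecules for 1 of 7 (1), where 50.1% of all probes were (54.0%). Binders were above 0 for 4 of 7 (2), and processing enzymes for 3 of 5 (2). The inducers Tnf and Ifng were detected on 0 arrays.

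Leukocyte markers moved with the chemokine values in heterozygote 3, which was the highest mouse in most such lists. Macrophage and monocyte markers, such as Emr1 and C1qb, were detected with 13 of 19 probes, with 13 above 0 and a median of 0.29, and 7 of the 13 above 0 with a median of 0.036 without heterozygote 3. Sums take in every probe of a list, detected or not. Over the 19 macrophage and monocyte probes they were 1854 to 3940.4 in heterozygotes and 1398 to 2341 in wild types. The highest heterozygote other than 3 was at 2809. T and NK cell markers were detected with 4 of 13 probes and summed to 405 to 1101 in heterozygotes and 203 to 699 in wild types. All 4 detected probes were above 0 (median 0.25), and 1 of them without heterozygote 3 (median -0.29). Thy1 alone gave 498 in heterozygote 3 and 557 in wild type 2, where the sums were 1101 and 699. The other detected probes, for Cd3d, Cd3e and Cd3g, were highest in heterozygote 3, at 95.7, 90.6 and 200. Cd4, Cd8a, Cd5, Gzma and Klrb1c were on 0 arrays. B and plasma cell markers were detected with 2 of 13 probes, both for Cd79b. The 13 probes summed to 16.3 to 825 in heterozygotes and 1.07 to 237 in wild types. In heterozygote 3 the Cd79b probes gave 401 and 103 of the 825. Without heterozygote 3 the highest heterozygote sum was 119. Both Cd79b probes were above 0 (median 0.24), against 0 without heterozygote 3 (median -0.44). Igj was at background in all mice.

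Neutrophil markers had 2 of 13 probes detected, both below 0, and sums of 69.3 to 216 in heterozygotes and 139 to 253 in wild types. Heterozygote 3 had the lowest sum. In deposited values S100a8 was lowest in that mouse, at 32.1. S100a9, at 26.1 there, was lower in heterozygote 1 (16.7) and wild type 1 (15.9). Mpo, Camp, Ngp and Retnlg were on 0 arrays. Dendritic cell markers had 1 of 8 probes detected, and thymocyte markers 1 of 5, with sums up to 75.0 and 500.0 in heterozygote 3. Cd1d1 gave 491 of that thymocyte sum, and Rag2 and Dntt were on 0 arrays. Mast cell markers had 4 of 7, with 499 in heterozygote 3 and 479 in wild type 2. Lung epithelial markers summed to 11008 in heterozygote 3, 6728 in wild type 1 and at most 594 elsewhere. Nearly all of that was Scgb1a1, a secretory protein of the airways, while Sftpc, Sftpb and Sftpa1 were detected in heterozygote 3 alone, as was Cxcl15, and Ager and Cldn18 in no mouse. Sftpd, detected on 2 arrays, reached 249 in heterozygote 3 and 92.6 in wild type 1. The part of these cells in the chemokine values was not tested.

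Among the other tissue cells, smooth muscle (7 of 8 probes), mesothelial (4 of 7) and atrial markers (5 of 6) were highest in wild type 2, at 9089.6, 1685 and 61304, with heterozygote 3 next. Adipocyte markers (3 of 4) ran from 805 in heterozygote 2 to 20978 in heterozygote 3, with every other mouse at or below 9788. Cfd gave 777 and 20038 of the sums of heterozygotes 2 and 3, and Fabp4 was on 0 arrays. Fibroblast markers (9 of 10 probes) summed to 11175 to 15696 in heterozygotes and 10059.7 to 14193 in wild types. Endothelial markers (7 of 9) summed to 3597 to 4099.9 in heterozygotes and 2569.8 to 3987 in wild types. The groups overlapped in both, and the sums are not scaled between arrays. In normalized values 8 fibroblast probes were above 0 and 1 below (median 0.038, or -0.059 without heterozygote 3). Of the endothelial probes 1 was above 0 and 6 below (median -0.12, or -0.13 without heterozygote 3). Smooth muscle probes were above 0 for 2 of 7, atrial for 0 of 5, mesothelial for 3 of 4 and adipocyte for 2 of 3.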

How the data were processed

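Left ventricles of 4 heterozygotes and 4 wild types were measured on 1 bead array each. Groups and replicate numbers are those of the labels, where each mouse is a biological replicate. The authors deposited background-subtracted mean bead intensity values, per the file headers not normalized, with a detection p-value per probe, deposited in steps of 1 in 798. Between 23.0% and 27.2% of values per array were below 0. A further table of intensity values that the authors normalized (method not given in the sources used here) was an alternative. Values printed mouse by mouse are the deposited intensities, which are not scaled between arrays. Sums of marker lists are of these values over every probe of the list outside the members, detected or not, values below 0 included.

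For the tests, intensities were corrected by normexp (limma nec, offset 16), quantile normalized and taken to log2, which pulls differences of dim probes towards 0. All 10547 probes detected on 4 or more arrays were fitted with lmFit and eBayes (limma 3.58.1, R 4.3.3), heterozygote minus wild type, two-sided, with Benjamini-Hochberg adjustment over all of them at 0.05. Figures used Python 3.11.15 and matplotlib 3.10.9. The fit was tested on simulated data. Members, lists and rules were chosen with earlier results of these data known. Detected members are named, except 1 that is counted but not reported here. Of the signalling list, up to 4 probes per direction with the smallest p are named. Symbols were matched to RefSeq gene names (GRCm38.p6), 48 of 51 as current and 3 as synonyms. Promoters came from RefSeq. Alternatives covered normalization, background, the deposited normalized table, filter, probe choice, array weights, mouse number as a block, eBayes options, threshold and mice left out. Chips and scans were not analysed as batches here.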

Additional observations from a re-analysis of the deposited data

Results flagged for a closer look

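Within each genotype, a normalized log2 value was singled out by the ratio of Dixon. Its gap to the nearest other mouse, divided by the range of the 4 values, had to exceed the 95% critical value. This marked 5 of 62 groups, where chance marks about 1 in 20, or 3.1. Cxcl9 stood apart in heterozygote 3 at 6.60, with the other heterozygotes between 4.70 and 4.95. Ccl21b stood apart in the same mouse at 8.15, against 7.11 to 7.25. In heterozygote 2, Ccl11 on probe ILMN_2862179 was low at 4.64 (others 5.28 to 5.36) and Cxcl12 on probe ILMN_2658908 was high at 11.76 (others 11.18 to 11.27). In wild type 1, Ccl12 on probe ILMN_3161805 was at 5.24, with the other wild types between 4.71 and 4.77. The test sees 1 value apart from 3 close ones, so Ccl4, with heterozygotes 3 and 4 both high, is not marked by it.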

How the results depend on the processing

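No chemokine probe passed an adjusted p of 0.05 (limma) under any alternative run, and over all probes the count was 0 except with heterozygote 3 and wild type 2 left out together, when 1 probe passed (Slc4a1, named after its value was seen, 1.39, adjusted p 0.0402). Unadjusted counts over all probes were 493 as reported, 1553 with array weights, 1181 without the detection filter, 1063 without those 2 mice and 315 with mouse number as a replicate block, which changed no call. Deviations from the genotype mean correlated at -0.24, -0.28, -0.42 and 0.21 between mice that share a number. These values cannot show whether such mice were paired or handled together, and the main fit assumed no pairing. With 1 mouse left out, the unadjusted counts over all probes ran from 298 to 850. They were 850 without heterozygote 2, 819 without heterozygote 3, 775 without wild type 2, 327 without heterozygote 4 and 298 without wild type 3. The members above 0 numbered 16 to 29 of 31 with 1 mouse left out (16 without heterozygote 3), 19 without heterozygote 3 and wild type 2, 51 of 64 without the filter, 16 of 18 for probes detected on all arrays, 23 of 25 with 1 probe per symbol, and 24 to 30 of 31 otherwise. These counts were added as alternatives after seeing the data. Their median difference ran from 0.0045 to 0.39 with 1 mouse left out, was 0.043 without the 2 mice and 0.088 without the filter.

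Over the alternatives of all 31 single probes, 550 differences kept their sign and 51, over 19 probes, had another. With heterozygote 3 and wild type 2 left out these were Ccl11 on ILMN_2647757 -0.29, Ccl12 on ILMN_3161805 -0.032, Ccl19 -0.12, Ccl6 -0.087, Ccl8 -0.39, Cxcl12 on ILMN_2737302 -0.26, Cxcl13 -0.12, Cxcl16 -0.054 and Cxcr4 -0.21. With array weights they were Ccl19 -0.13, Ccl21c -0.023, Ccl27 on ILMN_3146018 0.073, Cxcl12 on ILMN_2737302 -0.12, Cxcl16 -0.016 and Cxcr4 -0.076, and with median scaling Ccl27 on ILMN_3146018 0.11 and Cxcl12 on ILMN_2658908 0.025. Cxcl12 on ILMN_2737302 gave -0.040 in the authors' deposited normalized table and -0.025 without normexp. With 1 mouse left out, the lowest and highest differences were Ccl11 on ILMN_2862179 -0.33 and 0.0046, Ccl11 on ILMN_2647757 -0.17 and 0.44, Ccl19 -0.20 and 0.63, Ccl21b -0.084 and 0.54, Ccl21c -0.099 and 0.57, Ccl25 -0.052 and 0.13, Ccl27 on ILMN_3146018 -0.11 and 0.058, Ccl27 on ILMN_1216183 -0.0083 and 0.22, Ccl6 -0.11 and 0.23, Ccl8 -0.20 and 0.88, Ccl9 -0.0084 and 0.79, Cxcl1 -0.035 and 0.31, Cxcl12 on ILMN_2737302 -0.28 and 0.32, Cxcl13 -0.24 and 0.89, Cxcl16 -0.13 and 0.16, Cxcl9 -0.060 and 0.61, and Cxcr4 -0.073 and 0.29. For 12 probes, among them Cxcl14 (both), Cx3cr1, Ccl7, Ccl4, Ccl5, Cx3cl1 and Ccl21a, the sign held under every alternative. The cause of these changes was not tested. With 4 mice per genotype and intervals wider than most differences, and 33 of 64 probes near background, a small difference in a chemokine could go undetected.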
